A study of Homo sapiens with 12 samples.

Results

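The 10 genes described here are FOS, FOSB, FOSL1, EGR1, JUN, JUNB, IER2, IER3, ATF3 and DUSP1, a list of immediate early response genes taken from the 25718 genes in the files. The list was chosen with earlier results of these data known, so counts of its genes set against all genes are a description. Of these 10 genes, 7 had a mean above 10 counts and could be tested among 11451 genes. The other 3 (FOSB, FOSL1 and ATF3) could not be measured with the deposited counts. Of the 7 measured genes, EGR1, JUN, JUNB and IER3 fell on induction of miR-10b, whereas on induction of miR-10a none passed the test used. In the direct test of the difference between both effects only EGR1 and JUN passed, and neither did so in every alternative fit. JUNB and IER3 are therefore not shown to respond differently to the vectors. The uninduced miR-10b cultures had higher levels of FOS, EGR1, JUN, JUNB and IER3 than the uninduced miR-10a cultures.

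The samples were cultures of the established human embryonic stem cell line H9, patterned for 14 days towards ventral midbrain neural progenitors with the ventralising ligand sonic hedgehog (SHH, 200 ng/ml) and the WNT pathway activator CT. Cells carried a lentiviral vector with a tetracycline-regulated miR-10a-GFP or miR-10b-GFP cassette, used at an MOI (multiplicity of infection, vector particles per cell) of 50. There were 4 groups of 3 samples: miR-10a with doxycycline, miR-10a control, miR-10b with doxycycline and miR-10b control. Doxycycline was present from day 11 to day 14 in the doxycycline groups and absent from the controls, which carried the same vector. No culture with a GFP-only vector was analysed here, so an effect of doxycycline and an effect of miR-10 cannot be told apart. Each vector was represented by its own transduced cultures, so vector and culture cannot be told apart either. The labels number the replicates but do not say whether they came from separate cultures, and the p-values then measure only the spread between these samples, which may be technical. All cultures were dissociated and replated on day 11, so every group shared that handling.

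Immediate early genes are transcribed within minutes of a growth factor, calcium or stress signal and need no new protein synthesis for it. Mitogen-activated protein (MAP) kinases phosphorylate ternary complex factors, which act with serum response factor (SRF) at CArG boxes, and kinases downstream also activate CREB at cyclic AMP response elements. FOS and JUN family proteins dimerise to form the transcription factor AP-1, EGR1 is a zinc finger factor, ATF3 is a stress-responsive member of the CREB/ATF family, and DUSP1 is a phosphatase that inactivates MAP kinases. Their mRNAs are short-lived, in part through AU-rich elements in the 3′ untranslated region (3′UTR), and dissociation of living cells is a known trigger of the response.

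The genes lie on 6 chromosomes (GRCh37 coordinates). FOS (NM_005252) lies at chr14:75745529-75748933, EGR1 (NM_001964) at chr5:137801168-137804992, JUN (NM_002228) at chr1:59242517-59249720 and JUNB (NM_002229) at chr19:12902300-12904129. IER2 (NM_004907) lies at chr19:13261225-13265725, IER3 (NM_003897) at chr6:30710976-30712325 and DUSP1 (NM_004417) at chr5:172195099-172198198. JUNB and IER2 lie on the same strand of the same chromosome with 357096 base pairs between them. IER2 did not pass the test in any comparison, including those in which JUNB did. FOSB lies at chr19:45971253-45978437, FOSL1 at chr11:65659520-65668044 and ATF3 at chr1:212738676-212794119.

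The seed of the induced microRNA is shown because it decides which letters were searched in the 10 genes. The mature sequence is from RefSeq (GRCh38.p14), with the seed (bases 2 to 8) in capitals.
hsa-miR-10a-5p: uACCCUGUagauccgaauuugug
The longest 3′UTR of each gene in GENCODE 44 was searched on the mRNA strand for the 8mer ACAGGGTA, the 7mers ACAGGGT and CAGGGTA and the 6mer CAGGGT, each gene counted under its longest match. None of the 10 genes held an 8mer or a 7mer, and 8 of 10 held no match. IER2 held 1 match and ATF3 held 2 matches to the 6mer alone. Among the 9269 tested genes with a 3′UTR, 2.73% held the 8mer, 14.7% the first 7mer, 5.15% the second 7mer, 21.4% the 6mer alone and 56.1% no match. The single match in IER2, the only one in a measured member, lies in its 3′UTR at chr19:13265048-13265053 and is shown in capitals with flanking bases.
IER2: aaagatctcctCAGGGTcggacttcatt
Only the miR-10a-5p seed was read from a table, and miR-10b-5p is known to share it. The genes that fell with miR-10b had no match to these letters in the 3′UTR searched. This says nothing on sites elsewhere in the transcripts.

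AU-rich pentamers (ATTTA) were present in the longest 3′UTR of 9 of the 10 genes, against 76.1% of the 9269 genes. IER2 alone held none. IER3 held 6, FOS 5, DUSP1 4, JUN 3 and JUNB 2 pentamers, and EGR1 held 1. The nonamer TTATTTATT was found once in FOS and at 2 positions in DUSP1, whereas 9.95% of the genes held it. The median 3′UTR length was 978 bases for the 10 genes and 1840 bases for the genes compared.

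RefSeq promoters (GRCh38.p14, 250 bases before to 50 after the start) were given for 8 of the 10 genes. FOSL1 and IER3 were not matched. Both strands were searched for the CArG box, the cyclic AMP response element TGACGTCA, the AP-1 sites TGACTCA and TGAGTCA, and the EGR site GCGNGGGCG. Matches were found in 2 genes, and they are shown because EGR1 was one of the genes that changed and DUSP1 the one that encodes the feedback phosphatase. Capitals mark the motif, and each window matched GRCh37 once.
EGR1, CArG box 105 bases before the start, chr5:137801053-137801082, plus strand: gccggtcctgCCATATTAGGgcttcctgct
EGR1, CArG box 83 bases before the start, chr5:137801075-137801104, plus strand: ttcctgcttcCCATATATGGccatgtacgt
EGR1, EGR site 198 bases before the start, chr5:137800960-137800989, plus strand: tgggatgcggGCGCGGGCGcgggccctagg
DUSP1, cyclic AMP response element 125 bases before the start, chr5:172198305-172198334, minus strand: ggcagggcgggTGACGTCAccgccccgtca
The CArG boxes do not overlap each other or the EGR site. A CArG box was present in 1.29%, the cyclic AMP response element in 1.85%, an AP-1 site in 4.95% and an EGR site in 9.43% of all 35116 promoters of this length. Among the 10900 promoters of tested genes the shares were 1.06%, 2.76%, 3.28% and 14.8%. FOS, FOSB, JUN, JUNB, IER2 and ATF3 held none of these letters in this window, and longer or variant sites were not searched.

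Values are given as CPM, in which each count is taken relative to its library's total. Total counts ranged from 10545487 to 14165426 per sample, and for each vector all controls were sequenced more deeply than all doxycycline samples. A floor of 3 counts corresponded to between 0.212 and 0.284 CPM, which covers counting error only. Induction was checked on the precursors: MIR10A had 724 ± 10.8 CPM (SD, n = 3) with doxycycline and 0.999 ± 0.363 CPM (SD, n = 3) in its control, and MIR10B had 2619 ± 67.5 CPM (SD, n = 3) and 3.55 ± 0.807 CPM (SD, n = 3). Chi-square per degree of freedom between replicates was 1.22 to 1.93, except in the pairs that include the second miR-10b doxycycline replicate (3.17 and 4.11), so results on that group are also given without it. As checks of the cells, SOX2 had 10922 to 15972 counts, NES 45781 to 69570 counts and SOX1 242 to 717 counts per sample. Of the midbrain and floor plate genes EN1 had 1014 to 1383, CORIN 63 to 311, FOXA2 66 to 123, LMX1A 31 to 96 and OTX2 2 to 10 counts. All of these but EN1 have several transcripts, so their low counts do not measure their expression. Of the pluripotency markers with 1 transcript, ZFP42 had 0 to 1 counts, whereas DPPA4 had 1186 to 1984 and LIN28A 10570 to 21290 counts. NANOG (0) and POU5F1 (0 to 2) were at or near 0, but both have several transcripts, so their low counts do not mean low expression.

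Scaled to transcript length, IER2 had the highest level of the 7 measured genes, with a mean of 51.2 CPM per kb over the 12 samples (49.1 to 53.1). EGR1 followed at 35.1 CPM per kb (25.4 to 45.8), JUN at 31.0 (25.0 to 38.8) and DUSP1 at 26.1 (24.6 to 28.6). IER3 (10.8, from 8.18 to 16.1), JUNB (10.3, from 7.81 to 14.0) and FOS (6.68, from 5.43 to 8.39) formed the lower end. IER2 stood clear of EGR1 and DUSP1 stood clear of IER3, while all other neighbours in this order overlapped over the 12 samples. Within the miR-10b control group, EGR1, JUN and DUSP1 were separated from each other. In the miR-10b doxycycline group the order of the lower genes was turned, with JUNB at 11.1 CPM per kb (10.7 to 11.3) above IER3 at 9.95 (9.50 to 10.3) and no overlap.

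**Figure D1:**
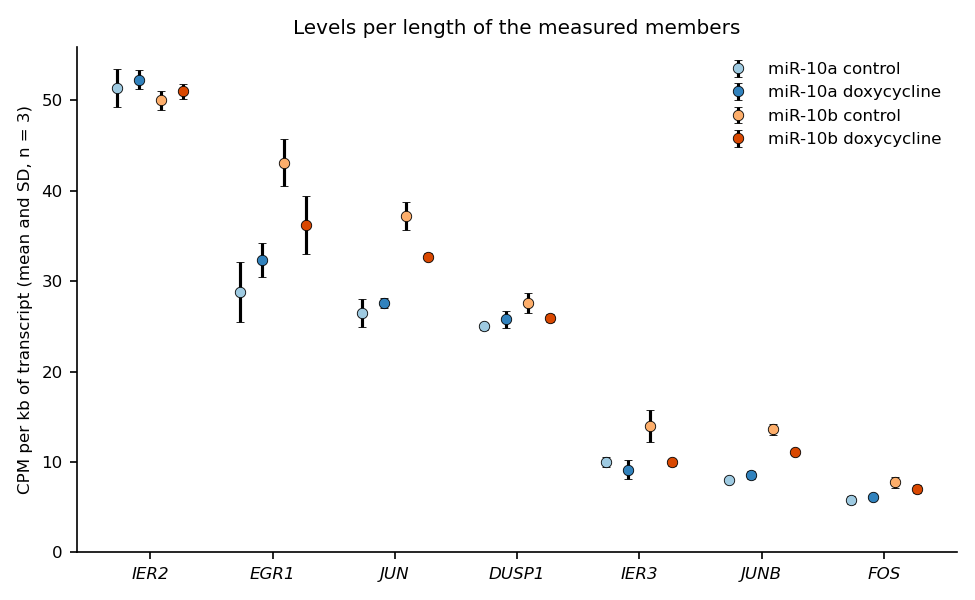
Level of the 7 measured immediate early genes in CPM per kb of transcript, with mean and SD of 3 samples for each of the 4 groups. IER2 lies near 51.2 CPM per kb in every group, whereas EGR1, JUN, IER3, JUNB and FOS are highest in the miR-10b controls.

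The other 3 genes are annotated with several transcripts, for which shared reads appear to have been left uncounted, so that a low count does not mean low expression. FOSB, a FOS family partner of JUN proteins, had 15 counts in all, at most 3 in a sample, on 1 of its 2 transcripts. FOSL1, another FOS family member, had 0 counts on each of its 6 transcripts. ATF3 had 1 count in all over its 6 transcripts, in replicate 2 of the miR-10a control. No statement is made on these genes. IER3 was listed on 6 rows with the same counts, of which 1 was used.

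FOS, which dimerises with JUN proteins, had 12.54, 11.72 and 13.62 CPM in the miR-10a controls and 13.40, 13.08 and 12.90 CPM with doxycycline. It had 16.76, 15.48 and 18.11 CPM in the miR-10b controls and 15.48, 13.98 and 15.80 CPM with doxycycline. Each miR-10b control was above each miR-10a control, while doxycycline and control samples overlapped for both vectors. FOS rested on 136 to 241 counts per sample.

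EGR1, the zinc finger factor, had 79.72, 90.93 and 100.2 CPM in the miR-10a controls and 96.54, 99.60 and 108.0 CPM with doxycycline. In the miR-10b cells it had 127.3, 134.3 and 143.5 CPM without and 101.8, 119.2 and 119.6 CPM with doxycycline. The miR-10a groups overlapped, with 1 control inside the range of the doxycycline samples. Each miR-10b doxycycline sample was below each miR-10b control.

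JUN, the central AP-1 subunit, had 93.55, 87.75 and 83.09 CPM in the miR-10a controls and 93.10, 92.23 and 89.42 CPM with doxycycline. It had 123.4, 118.5 and 128.8 CPM in the miR-10b controls and 107.5, 109.9 and 108.1 CPM with doxycycline. The latter 3 samples lay within a narrow range, below all miR-10b controls and above all miR-10a samples.

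JUNB, a JUN relative that also joins AP-1, had 14.39, 15.11 and 14.18 CPM in the miR-10a controls and 14.94, 16.39 and 15.17 CPM with doxycycline. It had 25.34, 25.48 and 23.51 CPM in the miR-10b controls and 20.53, 20.42 and 19.37 CPM with doxycycline. JUNB followed the pattern of JUN with a wider gap between the controls, and its miR-10a groups overlapped.

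IER3, a small regulator of cell survival, had 13.26, 12.14 and 11.86 CPM in the miR-10a controls and 12.68, 11.18 and 10.15 CPM with doxycycline. It had 15.89, 16.22 and 19.91 CPM in the miR-10b controls and 11.78, 12.44 and 12.80 CPM with doxycycline. The miR-10b doxycycline samples lay within the range of the miR-10a samples, and replicate 3 of the miR-10b controls was the highest of all.

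DUSP1 had 50.39, 49.84 and 51.36 CPM in the miR-10a controls and 52.25, 54.14 and 50.35 CPM with doxycycline. It had 57.90, 53.48 and 56.04 CPM in the miR-10b controls and 52.67, 51.31 and 53.05 CPM with doxycycline. The miR-10b groups did not overlap, but the nearest samples were 53.05 and 53.48 CPM. IER2, an immediate early regulator of transcription, had 106.8, 108.6 and 100.4 CPM in the miR-10a controls and 108.4, 108.2 and 104.5 CPM with doxycycline. It had 100.6, 101.5 and 104.7 CPM in the miR-10b controls and 102.4, 105.4 and 105.3 CPM with doxycycline. IER2 thus spanned a narrow range, and its groups overlapped in all comparisons.

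**Figure D2:**
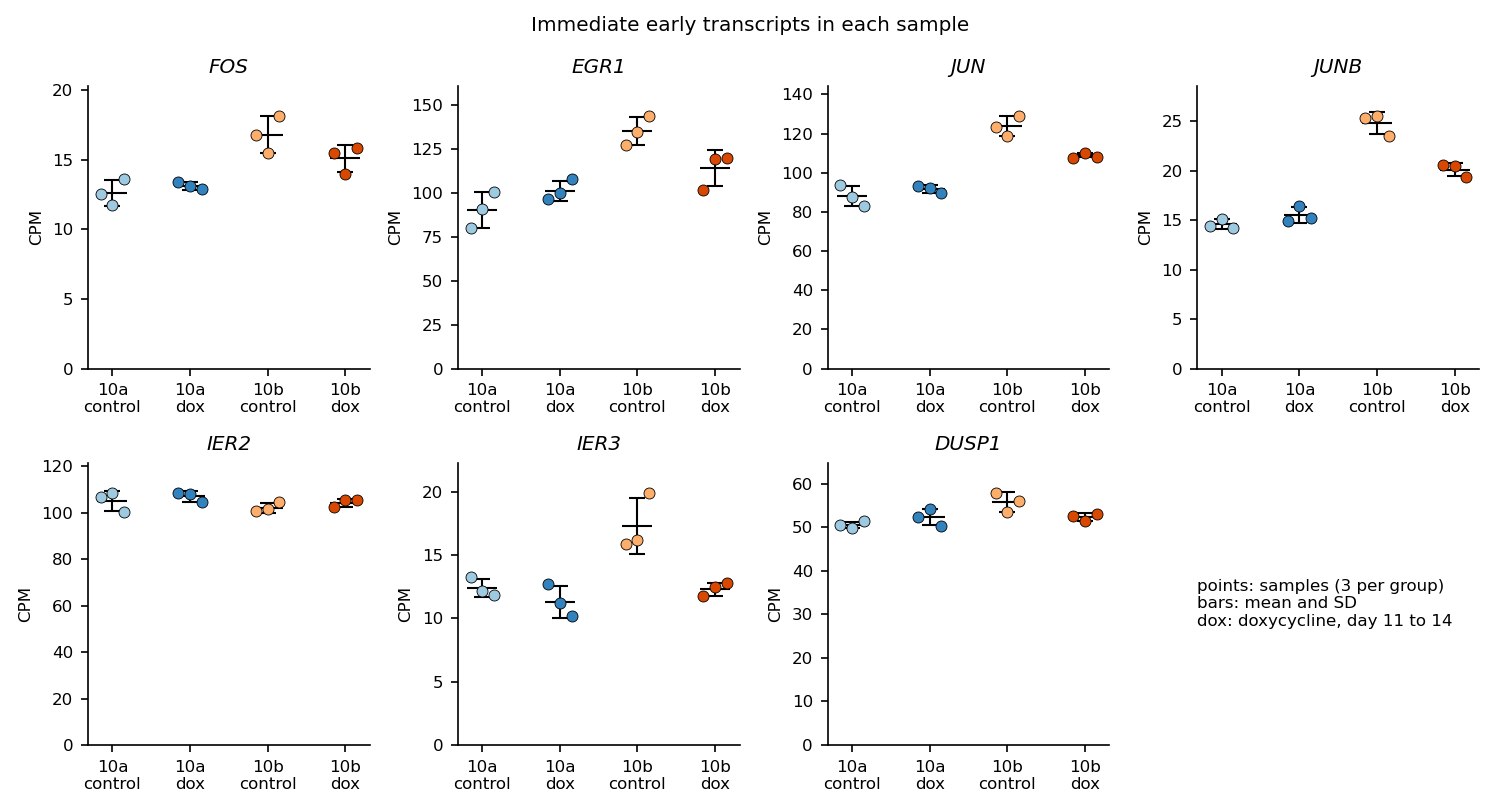
CPM of the 7 measured immediate early genes in each of the 12 samples, grouped by vector and doxycycline, with points for samples and bars for mean and SD (n = 3). In the miR-10b cells every doxycycline sample of EGR1, JUN, JUNB, IER3 and DUSP1 lies below every control, whereas IER2 stays between 100.4 and 108.6 CPM.

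To ask whether miR-10a altered the immediate early genes, its doxycycline group was compared with its own control. None of the 7 genes changed by edgeR's quasi-likelihood test (Benjamini-Hochberg adjusted p under 0.05), against 1.21% of all genes tested. By the same test 1 of 7 had an unadjusted p under 0.05, as had 11.2% of all genes, and with DESeq2 none of the 7 was called. None of the 7 genes had separate groups, against 18.2% of all genes. The 7 genes had a median log2 fold change of 0.056, and all genes had one of 0.010. EGR1 differed most, at 101 ± 5.94 CPM (SD, n = 3) with doxycycline and 90.3 ± 10.3 CPM (SD, n = 3) without, a log2 fold change of 0.17 (SE 0.063, 95% interval 0.038 to 0.29, edgeR adjusted p = 0.26). For IER3 the log2 fold change was -0.13 (95% interval -0.35 to 0.093), which includes no difference. JUN had an interval of -0.039 to 0.15, JUNB of -0.087 to 0.27, FOS of -0.14 to 0.26 and DUSP1 of -0.058 to 0.16. A fall of JUN of the size seen with miR-10b (-0.19) lay outside the interval for miR-10a.

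Induction of miR-10b was compared in the same way. EGR1, JUN, JUNB and IER3 fell, and no member rose. Thus 4 of 7 genes were called, against 15.3% of all genes in either direction and 7.15% in the lower direction. In 5 of 7 genes (these 4 and DUSP1) every doxycycline sample was below every control, against 12.3% of all genes. The 7 genes had a median log2 fold change of -0.187, and all genes had one of 0.021. All calls over all genes split into 937 higher and 819 lower (53.4% higher). The split was 766 higher and 963 lower with TMM (44.3% higher) and 498 higher and 808 lower with DESeq2 (38.1% higher).

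Of these genes, IER3 fell most, from 17.3 ± 2.23 to 12.3 ± 0.52 CPM (SD, n = 3 each), by 0.49 on the log2 scale (SE 0.10, edgeR adjusted p = 0.0005). JUNB fell from 24.8 ± 1.1 to 20.1 ± 0.638 CPM (SD, n = 3 each), by 0.30 on the log2 scale (SE 0.075, edgeR adjusted p = 0.0042). Both changes were several times their standard errors. EGR1 fell from 135 ± 8.11 to 114 ± 10.2 CPM (SD, n = 3 each), by 0.25 on the log2 scale (SE 0.059, edgeR adjusted p = 0.0025). JUN fell from 124 ± 5.16 to 109 ± 1.24 CPM (SD, n = 3 each), by 0.19 on the log2 scale (SE 0.044, edgeR adjusted p = 0.0022). These falls were small in size, between 12.2% for JUN and 28.9% for IER3. FOS differed by -0.15 (95% interval -0.33 to 0.030, adjusted p = 0.28) and DUSP1 by -0.092 (95% interval -0.20 to 0.014, adjusted p = 0.26), neither past the threshold of edgeR's test. For IER2 the log2 fold change was 0.029 (95% interval -0.057 to 0.11). All of these calls were made without replicate 2 of the doxycycline samples as well, with log2 fold changes of -0.50 for IER3, -0.31 for JUNB, -0.29 for EGR1 and -0.20 for JUN.

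**Figure D3:**
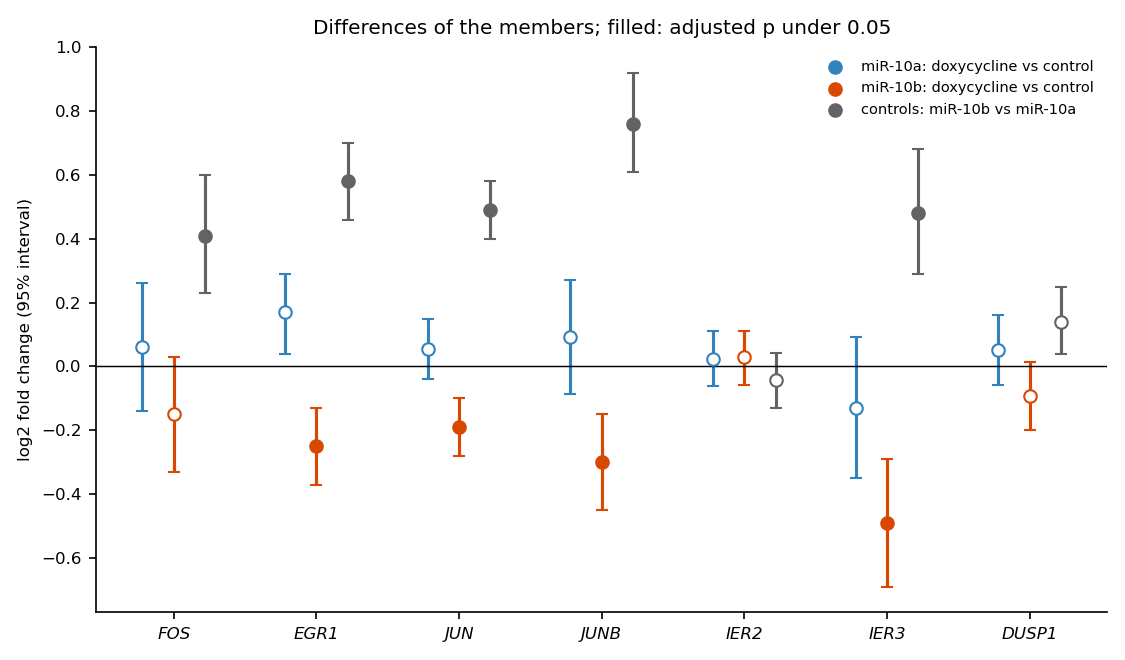
Log2 fold change with 95% interval of the 7 measured genes for doxycycline against control in the miR-10a and the miR-10b cells and for the miR-10b against the miR-10a controls, with filled points where edgeR's adjusted p is under 0.05. The miR-10b values lie below 0 for all genes but IER2, and the gap between controls reaches 0.76 for JUNB.

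Whether the response differed between the vectors was tested by the difference of both doxycycline effects. The difference was negative and past the threshold for EGR1 and JUN, that is 2 of 7 genes against 1.96% of all genes in either direction and 1.38% in the lower direction. It was -0.42 on the log2 scale for EGR1 (SE 0.086, edgeR adjusted p = 0.0041) and -0.24 for JUN (SE 0.064, edgeR adjusted p = 0.036). With DESeq2, EGR1 no longer passed (adjusted p = 0.055) while JUN did (adjusted p = 0.033). JUN lost the call without any 1 of 7 samples, namely miR-10a doxycycline replicate 1 (adjusted p = 0.099) or 2 (0.094), miR-10a control replicate 2 (0.089) or 3 (0.13), miR-10b doxycycline replicate 1 (0.071), and miR-10b control replicate 1 (0.064) or 3 (0.13). JUNB (-0.39, 95% interval -0.63 to -0.16, adjusted p = 0.071) and IER3 (-0.36, 95% interval -0.66 to -0.060, adjusted p = 0.25) did not pass edgeR's test. IER3 is therefore not shown to respond differently to the 2 vectors. In the average of both effects IER3 was the only member called, with a fall of 0.31 on the log2 scale (SE 0.074, edgeR adjusted p = 0.0033). This was 1 of 7 genes against 13.9% of all genes in either direction and 6.22% in the lower direction.

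The controls of both vectors, which had received no doxycycline, were compared to give the level without induction at the same day. The precursors differed at low levels between these controls. MIR10A had 0.999 CPM in the miR-10a and 0.0515 CPM in the miR-10b controls, and MIR10B had 0.814 and 3.55 CPM. The part of this in the gap between controls was not tested. FOS, EGR1, JUN, JUNB and IER3 were higher in the miR-10b controls, 5 of 7 genes against 14.1% of all genes in either direction and 7.41% in the higher direction. In 6 of 7 genes every miR-10b control was above every miR-10a control, against 14.2% of all genes. JUNB differed most, by 0.76 on the log2 scale (SE 0.078, edgeR adjusted p = 1.3e-09), from 14.6 ± 0.486 to 24.8 ± 1.1 CPM (SD, n = 3 each). EGR1 differed by 0.58 (SE 0.060, adjusted p = 1.7e-09) and JUN by 0.49 (SE 0.044, adjusted p = 7.3e-11) in edgeR's test. IER3 was 0.48 (SE 0.098, adjusted p = 0.00039) and FOS 0.41 (SE 0.091, adjusted p = 0.0011) higher in the same test. DUSP1 did not pass (0.14, SE 0.052, edgeR adjusted p = 0.06), but it did without miR-10b doxycycline replicate 2 (adjusted p = 0.038) or miR-10b control replicate 2 (adjusted p = 0.045). IER2 had a log2 fold change of -0.042 (95% interval -0.13 to 0.042). The gap between controls and the change with miR-10b were 0.76 and -0.30 for JUNB, 0.58 and -0.25 for EGR1, 0.49 and -0.19 for JUN, and 0.48 and -0.49 for IER3. Both comparisons share the miR-10b controls, so these values are not independent of each other.

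Across the 12 samples the levels of FOS, EGR1, JUN, JUNB, IER3 and DUSP1 moved together, as a description in which the 4 groups account for much of the range. Pearson's r of log2 CPM was 0.96 for JUN and JUNB, 0.89 for FOS and JUN and 0.86 for EGR1 and JUNB, and it was lowest for IER3 and EGR1 (0.65). IER2 was negatively correlated with each of the others, between -0.28 for IER3 and -0.56 for FOS. Of 6969 genes with a mean of at least 100 counts, those most like the mean standardised level of the 7 genes were COL1A1 (r = 0.974), RHOB (0.960), PTRF (0.959), GPC4 (0.958) and CYR61 (0.953). COL1A1, a collagen of mesenchymal cells, had 47.2 and 45.6 CPM in the miR-10a doxycycline and control groups and 67.4 and 102 CPM in those of miR-10b. RHOB, an immediate early small GTPase, had 226, 221, 264 and 315 CPM in the same order. PTRF, a coat protein of caveolae, had 31.8, 30.6, 42.6 and 64.7 CPM, GPC4, a glypican, had 277, 260, 355 and 431 CPM, and CYR61, a secreted matricellular protein, had 152, 146, 179 and 226 CPM. All 5 were highest in the miR-10b controls and second in the miR-10b doxycycline group. They were chosen for likeness to the members over the same samples, so this order is not a separate result.

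Since COL1A1 led this list, markers of mesenchymal cells and fibroblasts were examined. Of 9 markers, 7 were tested, and 5 of them (COL1A1, COL3A1, LUM, PDGFRA and TWIST1) were higher in the miR-10b than in the miR-10a controls (median log2 fold change 0.917). Of all genes 14.1% were called in this comparison in either direction and 7.41% in the higher direction. With miR-10b induction COL1A1 and COL3A1 fell, 2 of 7 against 15.3% of all genes, and with miR-10a induction none changed by edgeR's test. Their summed level was 173 to 177 CPM in the miR-10a controls, 170 to 191 CPM in the miR-10a doxycycline samples, 390 to 411 CPM in the miR-10b controls and 324 to 350 CPM in the miR-10b doxycycline samples. DCN and POSTN, the markers of this list that were not tested, had 0 to 1 counts, but both have several transcripts and were poorly measured. The summed level of the mesenchymal markers was highest in the miR-10b controls, as were FOS, EGR1, JUN, JUNB and IER3, but 5 of the 7 single markers did not pass the test with miR-10b. The part of these markers in the result was not tested. In bulk samples, a change in the number of cells of a type and a change in RNA per cell cannot be told apart. Endothelial and blood markers summed to 4.89 to 7.04 CPM. Pluripotency markers summed to 1643 to 1721 CPM in the miR-10a and 1229 to 1258 CPM in the miR-10b controls, and to 1526 to 1571 and 996 to 1009 CPM with doxycycline. This sum was mostly 1 gene, LIN28A, with a mean of 1242 CPM over the 12 samples against 126 CPM for DPPA4, the other marker tested. LIN28A fell with miR-10b by 0.34 on the log2 scale (SE 0.029, edgeR adjusted p = 4.8e-11). In the miR-10a cells it had 1539 ± 34.8 CPM without and 1395 ± 30.1 CPM with doxycycline (SD, n = 3 each), and these groups did not overlap. The study names LIN28A as a miR-10 target lowered by both vectors, so its level is not a marker of pluripotent cells alone here. Likewise NES, with a mean of 4726 CPM, made up most of the neural progenitor sum. These markers summed to 6686 to 6720 CPM in the miR-10a and 7258 to 7350 CPM in the miR-10b controls, and to 6399 to 6590 and 6684 to 7040 CPM with doxycycline. Neuron markers summed to 588 to 616 CPM in all controls and to 592 to 660 CPM with doxycycline. INA, with a mean of 558 CPM, made up most of this sum, and 6 of the 8 neuron markers have several transcripts. With miR-10b induction 1 of 10 tested progenitor markers rose and 3 fell (median log2 fold change -0.003). Of 4 tested neuron markers 2 (INA and NEUROD1) rose, and 15.3% of all genes were called in either direction. INA lost this call of edgeR's test in 6 of 12 fits that each left out 1 sample (adjusted p up to 0.2). The part of these shifts in the result was not tested.

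Genes that serve the same response were counted next. Of 44 other immediate early genes, 27 were tested, and 18 of the 44 have several transcripts. In the miR-10b cells 1 of 27 rose (BTG2) and 7 fell (median log2 fold change -0.078), and in the miR-10a cells HBEGF rose and ZFP36L2 fell (median 0.038). Between controls 11 were higher and 1 (IER5L) was lower in the miR-10b cells (median 0.164). In the test of the difference, 5 of 27 (CTGF, CYR61, FOSL2, HBEGF and RHOB) had a lower effect of miR-10b than of miR-10a. The shares of all genes were 1.21% for miR-10a, 15.3% for miR-10b (7.15% lower), 14.1% between controls (7.41% higher) and 1.96% in the difference, and they are the background of all list counts here. BTG2 lost its call with miR-10b in 5 of 12 fits that each left out 1 sample (adjusted p up to 0.16). The summed level of the 44 genes was 1907 to 1958 CPM in the miR-10a controls, 1924 to 1961 CPM with doxycycline, 2592 to 2720 CPM in the miR-10b controls and 2196 to 2250 CPM with doxycycline. CTGF (mean 729 CPM), ZFP36L2 (283 CPM), RHOB (256 CPM) and CYR61 (176 CPM) made up most of it. CTGF alone had 591 CPM in the miR-10a controls, 1027 CPM in the miR-10b controls and 732 CPM with miR-10b induction. The sum thus follows a few genes and not all 44.

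FOSL2, a FOS family member, fell with miR-10b from 13.4 ± 0.602 to 8.92 ± 0.734 CPM (SD, n = 3 each), by 0.59 on the log2 scale (SE 0.11, edgeR adjusted p = 0.00015). With miR-10a its log2 fold change was 0.016 (95% interval -0.22 to 0.25). CTGF, a secreted matricellular protein, fell by 0.49 with miR-10b (SE 0.037), from 1027 ± 63.7 to 732 ± 40.3 CPM (SD, n = 3 each), and was 0.80 higher in the miR-10b than in the miR-10a controls. ZFP36L2, which binds AU-rich elements and destabilises their mRNAs, fell by 0.14 on average (SE 0.027, edgeR adjusted p = 0.00019). The opposite direction was taken by HBEGF, a ligand of the EGF receptor. It had 24.7 ± 0.13 CPM (SD, n = 3) in the miR-10a controls and 42.5 ± 1.98 CPM (SD, n = 3) with doxycycline, and 38.9 ± 4.28 and 43.1 ± 0.793 CPM (SD, n = 3 each) in the miR-10b cells. Its average rise was 0.47 (SE 0.048, edgeR adjusted p = 4.5e-09), while the miR-10b groups differed by 0.15 (95% interval 0.019 to 0.28). PLK3, a stress-responsive kinase, rose by 0.15 (SE 0.047, adjusted p = 0.031) and BTG2, an antiproliferative gene, by 0.11 (SE 0.033, adjusted p = 0.019) on average in edgeR's test. PLK3 lost this call without miR-10a control replicate 3, miR-10b control replicate 2 or miR-10a doxycycline replicate 2 or 3 (adjusted p up to 0.13), and BTG2 without miR-10b doxycycline replicate 1 or miR-10a doxycycline replicate 2 (adjusted p up to 0.056). With DESeq2 neither passed (adjusted p = 0.099 and 0.086).

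Of 10 other MAP kinase phosphatases, 9 were tested. None changed with miR-10a, and 2 (DUSP7 and DUSP16) fell with miR-10b, 2 of 9 against 15.3% of all genes in either direction and 7.15% in the lower. The median log2 fold change of the 9 with miR-10b was 0.092, in the other direction. DUSP7, which acts on ERK, and DUSP16, which acts on JNK and p38, fell on average by 0.14 (SE 0.045, adjusted p = 0.028) and 0.11 (SE 0.030, adjusted p = 0.014) in edgeR's test. In fits that each left out 1 sample, DUSP7 lost this call in 5 of 12 (adjusted p up to 0.073) and DUSP16 in 1, without miR-10a control replicate 1 (adjusted p = 0.051). With miR-10b alone DUSP7 lost its call in 11 of 12 such fits (adjusted p up to 0.12) and DUSP16 in 3 (up to 0.13). Of 27 upstream kinases and SRF, CREB and ternary complex regulators, 18 were tested. None changed with miR-10a, and 2 (MKL2 and RPS6KA3) rose and 1 (NRAS) fell with miR-10b (median log2 fold change -0.012), 3 of 18 against 15.3% of all genes. NRAS, a GTPase at the head of the ERK cascade, fell with miR-10b from 393 ± 5.52 to 301 ± 16.2 CPM (SD, n = 3 each), by 0.38 on the log2 scale (SE 0.036). In the miR-10a cells it had 400 ± 5.91 CPM without and 370 ± 12.8 CPM with doxycycline (SD, n = 3 each). Between the controls of both vectors its log2 fold change was -0.027 (95% interval -0.098 to 0.044). On average RPS6KA2, an ERK-activated kinase, fell by 0.45 (SE 0.14, adjusted p = 0.033), RPS6KA3, its relative, rose by 0.089 (SE 0.027, adjusted p = 0.023) and MKL2, a coactivator of SRF, rose by 0.083 (SE 0.023, adjusted p = 0.013) in edgeR's test. Leaving out 1 sample at a time, RPS6KA2 lost the call in 6 and RPS6KA3 in 5 of 12 fits (adjusted p up to 0.13 and 0.10). For RPS6KA2 the value was -0.25 (adjusted p = 0.19) with counts summed over transcripts.

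Among 10 tested of 14 dimer partners, 1 gene rose with miR-10b and none changed with miR-10a. It was MAF, a large basic leucine zipper factor, with an average log2 fold change of 0.28 (SE 0.088, edgeR adjusted p = 0.03), a call lost without miR-10a control replicate 2, miR-10a doxycycline replicate 1, miR-10b doxycycline replicate 3 or miR-10b control replicate 3 (adjusted p up to 0.13). Of 15 AP-1 and serum responsive later genes, 11 were tested, and 4 (ANKRD1 and CNN1 among them) fell with miR-10b and 1 (ANKRD1) with miR-10a (medians -0.160 and 0.007), while 6 were higher and 1 (CCND1) lower in the miR-10b controls (median 0.204). ANKRD1, a stretch-responsive muscle ankyrin protein, had 67.6 ± 4.41 CPM without and 18.7 ± 1.69 CPM with miR-10b induction, and 38.0 ± 4.47 and 26.0 ± 2.28 CPM for miR-10a (SD, n = 3 each). It fell by 1.86 (SE 0.079) and 0.55 (SE 0.081) on the log2 scale. CNN1, a smooth muscle calponin, fell by 0.73 (SE 0.12) on the log2 scale with miR-10b, and with miR-10a its log2 fold change was 0.14 (95% interval -0.098 to 0.38).

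Stress and handling were examined through genes outside the list. Of 10 heat shock and handling genes, 9 were tested, and none changed in either doxycycline comparison. Between controls HSPB1 was higher and HSPA1B lower in the miR-10b cells, 1 gene each, and HSPA1B has a near-identical copy with which it may share reads. Their summed level was 1836 to 1918 CPM over all 12 samples with overlapping groups, and DNAJA1 (mean 750 CPM), HSPA8 (530 CPM) and HSPA1B (317 CPM) made up most of it. Of 15 integrated stress response targets, 9 were tested, with 1 (SLC7A11) lower for miR-10a and 2 (SLC7A11 and PHGDH) lower for miR-10b. On average SLC7A11, the cystine transporter, fell by 0.32 (SE 0.035, adjusted p = 1.4e-08), PHGDH, a serine synthesis enzyme, fell by 0.066 (SE 0.023, adjusted p = 0.046) and PPP1R15A, a phosphatase subunit that ends the response, rose by 0.10 (SE 0.033, adjusted p = 0.037) in edgeR's test. The calls of PHGDH and PPP1R15A were each lost in 8 of 12 fits that left out 1 sample (adjusted p up to 0.13).

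**Figure D4:**
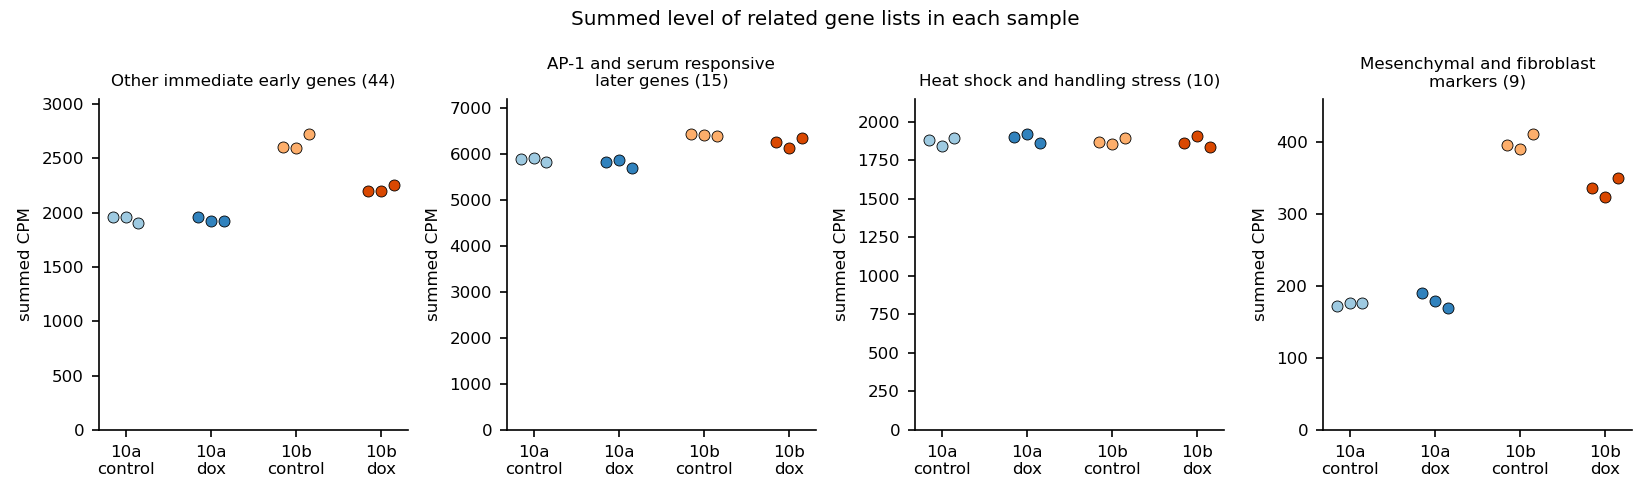
Summed CPM of 44 other immediate early genes, 15 AP-1 and serum responsive later genes, 10 heat shock and handling genes and 9 mesenchymal and fibroblast markers in each of the 12 samples, grouped by vector and doxycycline. The other immediate early genes and the mesenchymal markers are highest in the miR-10b controls (2592 to 2720 and 390 to 411 CPM), while the heat shock genes lie between 1836 and 1918 CPM in every group. Among the other immediate early genes CTGF alone has 1027 CPM in the miR-10b and 591 CPM in the miR-10a controls.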

How the data were processed

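H9 cells with a miR-10a or miR-10b vector, with or without doxycycline, gave 12 samples. Raw counts deposited by the authors, from reads mapped to hg19, were given per RefSeq transcript, 1 table per sample. The submitters' processing notes name STAR, featureCounts and Subread, with versions not given in the sources used here. RNA and library kits differ between the study's methods and the labels. Each table held 51799 rows for 48101 transcripts, and 3698 repeated rows with the same counts were dropped. Genes with 1 transcript held 92.84% of the counts, since reads shared by several transcripts appear uncounted. A gene with several was represented by its transcript of highest mean count.

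Tests used edgeR 4.0.16 under R 4.3.3 (quasi-likelihood functions glmQLFit, glmQLFTest, total counts as library size, 4 group means in 1 fit) on genes with a mean above 10 counts, with Benjamini-Hochberg adjustment over all genes tested and a threshold of 0.05. SE is the log2 fold change divided by the square root of F. Alternatives were TMM, DESeq2 1.42.0, no filter, a mean above 50 counts, a replicate block, counts summed over transcripts, 6 samples alone and leaving out each sample. The code was tested on simulated data. Other steps used Python 3.11.15 and pandas 2.3.3.

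All 10 genes of the list are named. Of each other list, up to 3 genes higher and 3 lower with an adjusted p under 0.05 in the average of both effects are named by size, and the 5 genes most like the members. Other names, given for small counts only, were chosen after their values were seen. 1 gene that the rule names is not reported here. The members and lists were chosen with earlier results of these data known.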

Additional observations from a re-analysis of the deposited data

Results flagged for a closer look

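Single samples were not tested for outlying values, because groups of 3 are too small. The effect of doxycycline differed between the vectors by the test of the difference (miR-10b effect minus miR-10a effect, log2 scale, edgeR's quasi-likelihood test, Benjamini-Hochberg adjusted over all genes) in 15 of the named genes, and in each of them the miR-10b effect was the lower. Over all 11451 genes tested, 224 were called in the difference, 66 higher and 158 lower. COL1A1, RHOB, PTRF, GPC4 and CYR61 were chosen for likeness to the members over the same samples. Their direction is therefore not independent of that of the members. Among the immediate early genes of the list the difference was -0.42 for EGR1 (adjusted p = 0.0041) and -0.24 for JUN (adjusted p = 0.036). Among the other immediate early genes it was -0.60 for FOSL2 (adjusted p = 0.036), -0.43 for CTGF (adjusted p = 1.6e-06), -0.39 for CYR61 (adjusted p = 0.00066), -0.28 for RHOB (adjusted p = 0.00042) and -0.63 for HBEGF (adjusted p = 7.8e-05). FOSL2 and CTGF fell with miR-10b, whereas HBEGF rose with miR-10a. Among the later AP-1 and serum responsive genes it was -1.31 for ANKRD1 (adjusted p = 1.4e-09) and -0.87 for CNN1 (adjusted p = 0.0019). The GTPase NRAS differed by -0.27 (adjusted p = 0.0012), the collagen COL1A1 by -0.65 (adjusted p = 9.7e-05), the caveolar protein PTRF by -0.66 (adjusted p = 2.7e-05), the glypican GPC4 by -0.37 (adjusted p = 1.5e-05), the RNA-binding protein LIN28A by -0.19 (adjusted p = 0.0041) and the progenitor factor SOX3 by -0.28 (adjusted p = 0.017). In fits that each left out 1 sample, FOSL2 lost this call in 8 and JUN in 7 of 12 (adjusted p up to 0.16 and 0.13), and SOX3 lost it without miR-10a control replicate 3 (adjusted p = 0.062) or miR-10b control replicate 1 (adjusted p = 0.092).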

How the results depend on the processing

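The 4 members called with miR-10b, the single member called in the average and the absence of a call with miR-10a were kept in number under every alternative, leave-one-out fits included. Of 294 values of single members under alternatives, with the lowest and highest leave-one-out values among them, 284 kept their direction and side of the threshold. Of 531 such values of other named genes, 472 did and 59 lost the call. The members called in the difference between vectors went from 2 to 1 with DESeq2, where EGR1 was lost (-0.43, adjusted p = 0.055), and were 1 to 2 in leave-one-out fits. The median member difference was -0.287 to -0.212 and the median gap between controls 0.372 to 0.517 in leave-one-out fits. The 139 genes called with miR-10a became 275 with 6 samples alone and 75 to 268 in leave-one-out fits, the most without miR-10b doxycycline replicate 2 and the fewest without miR-10a doxycycline replicate 1. The 224 genes called in the difference became 343 without a filter and 140 to 339 in leave-one-out fits, the most without miR-10b doxycycline replicate 3 and the fewest without miR-10a control replicate 2. IER2, never called, changed sign in the difference with TMM (-0.003) and DESeq2 (-0.005) and ranged from -0.019 to 0.038 in leave-one-out fits, below 0 in 7 of 12. With miR-10a it ranged from -0.009 to 0.048. The cause of these shifts was not tested. DUSP1 was called between controls with TMM (adjusted p = 0.047), a mean above 50 counts (0.045) and 6 samples alone (0.046), which makes 6 members there in place of 5.

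Same-numbered doxycycline and control samples of a vector did not deviate together (r from -0.0293 to 0.0126). Differently numbered ones gave a like range (r from -0.0231 to 0.0319). A shared origin that leaves little trace in the counts would not be seen by this check, so whether the samples share more than a number is not known. With the replicate block 116 genes were called for miR-10a, 1638 for miR-10b, 1461 in the average and 218 in the difference, and the members called stayed at 0, 4, 1 and 2. The share of higher calls was 55.2% in the average (DESeq2 38.3%, TMM 43.8%), 38.8% for miR-10a (DESeq2 28%) and 29.5% in the difference (DESeq2 13.3%). Depth limits FOS, JUNB and IER3 most, which had the fewest counts.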

Other observations

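Among the cell type markers measured beside the immediate early genes, a few passed edgeR's test in the average of both doxycycline effects. CORIN, a floor plate protease, fell by 0.53, SOX3, a neural progenitor factor, by 0.26 and NES, an intermediate filament of progenitors, by 0.090 on the log2 scale, which makes 3 of the 10 neural progenitor markers tested, against 13.9% of all genes called. The neuronal genes INA (0.064) and NEUROD1 (0.20) rose, 2 of 4 tested, but INA lost its call in 8 of 12 fits that each left out 1 sample (adjusted p up to 0.13). With miR-10a alone CORIN (adjusted p = 0.42), SOX3 (0.25), NES (0.57), INA (0.72) and NEUROD1 (0.26) did not pass edgeR's test, whereas with miR-10b alone each did. Between controls, CORIN was 1.61 higher and SOX3 0.76 lower on the log2 scale in the miR-10b than in the miR-10a cells. LIN28A, an RNA-binding protein of early cells, fell by 0.24 on average. KDR, a VEGF receptor, rose by 0.84 (SE 0.21, adjusted p = 0.004) on average from a low level, while the endothelial and blood markers as a whole summed to at most 7.04 CPM in any sample. It did not pass edgeR's test with miR-10a alone (adjusted p = 0.052) or miR-10b alone (adjusted p = 0.16).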
